A study of Homo sapiens with 9 samples.

Results

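The genes described here are 9 genes of MHC class I antigen presentation: the heavy chains HLA-B, HLA-C, HLA-E and HLA-F, the light chain B2M, the peptide transporter subunits TAP1 and TAP2, the loading protein tapasin (TAPBP) and the transactivator NLRC5. They were taken by symbol from the 60880 Ensembl gene IDs of the deposited count files, and all 9 were found. The values come from poly-A RNA-seq of SNU5, an established human gastric carcinoma line, treated for 24 h. The NR group received AuNR-PEG-Ab (gold nanorods carrying the antibody over a PEG linker), the SP group AuSP-PEG-Ab (the same coating on gold spheres) and the Ab group ramucirumab alone, a monoclonal antibody against VEGFR2. All 3 groups had 8 μg/mL of the antibody, each had 3 libraries, and no untreated cells were among the 9 libraries, so every change against Ab compares a gold conjugate with the free antibody. Total counts per library were 13863155 to 25735410 in NR, 20601906 to 22914759 in the SP libraries and 19566064 to 26318227 in Ab. The libraries of a group are described as biological replicates and in vitro work as independently repeated, while the labels do not name the culture of each library. The p-values measure the spread between these libraries. All groups share the genotype of this 1 line.

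Class I molecules show peptides from inside the cell to CD8 T cells. Peptides are cut by the proteasome, carried into the endoplasmic reticulum by the TAP1-TAP2 transporter, trimmed by ERAP1 and ERAP2 and placed, with the help of tapasin, calreticulin and PDIA3, on a heavy chain that is paired with β2-microglobulin, the product of B2M. NLRC5 sits on the promoters of these genes together with the RFX, CREB and NF-Y factors, and interferons and NF-kB raise the genes further. Many of the heavy chain, transporter and immunoproteasome genes lie side by side in the MHC on the short arm of chromosome 6, while B2M and NLRC5 lie elsewhere.

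The upstream sequences of 3 genes outside the MHC that rose in NR and SP against Ab are shown, since B2M is the class I chain with interpretable counts and PSMB10 and PSME2 are partners whose 250 bases hold the letters of an interferon-stimulated response element. Each run covers the 250 bases before the gene start on the gene's own strand, 5′ to 3′, from RefSeq on GRCh38.p14, and capitals mark the motifs found by letter search on both strands. The B2M run is chr15:44711267-44711516 (plus strand), the PSMB10 run chr16:67936851-67937100 (minus strand) and the PSME2 run chr14:24146611-24146860 (minus strand).
B2M: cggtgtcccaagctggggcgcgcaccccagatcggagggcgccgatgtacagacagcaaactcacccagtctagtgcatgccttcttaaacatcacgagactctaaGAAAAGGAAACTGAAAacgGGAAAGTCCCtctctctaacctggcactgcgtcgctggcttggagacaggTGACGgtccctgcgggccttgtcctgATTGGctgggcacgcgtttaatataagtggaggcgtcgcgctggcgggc
PSMB10: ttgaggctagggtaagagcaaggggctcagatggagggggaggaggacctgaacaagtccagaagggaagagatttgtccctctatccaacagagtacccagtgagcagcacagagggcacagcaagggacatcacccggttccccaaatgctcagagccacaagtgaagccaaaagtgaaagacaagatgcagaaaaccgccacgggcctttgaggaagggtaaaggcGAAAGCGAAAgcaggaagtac
PSME2: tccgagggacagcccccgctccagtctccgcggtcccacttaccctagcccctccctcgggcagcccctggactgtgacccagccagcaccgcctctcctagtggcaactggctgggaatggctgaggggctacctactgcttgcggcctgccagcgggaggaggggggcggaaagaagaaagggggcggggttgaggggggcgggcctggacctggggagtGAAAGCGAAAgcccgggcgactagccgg
The letters searched were GAAA, any 2 bases and GAAA again for the interferon-stimulated response element (ISRE), TGACG for the core of a CRE and CCAAT for the NF-Y box, and for a kB site the letters whose reverse complement is the second block of capitals in the B2M run. In B2M, 2 overlapping copies of the ISRE letters, the first block of capitals, began 144 and 138 bases before the start, followed by the kB letters on the other strand at 125, TGACG at 75 and CCAAT on the other strand at 49. PSMB10 held the ISRE letters 21 bases and PSME2 28 bases before the start. Of the 35116 promoters in the RefSeq table, 3.02% held the ISRE letters in the same window, 0.179% the kB letters, 21.2% TGACG and 32% CCAAT. The table matched 7 of the 9 class I genes, all but HLA-E and NLRC5, of which 5 held the ISRE letters, 2 the kB letters, 4 TGACG and 5 CCAAT. A match is a description of letters and not a measured binding site, and the 3 genes were picked for display with their values known.

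Of the 9 genes, 7 lie within 3.59 Mb on chromosome 6, and this whole stretch held almost no counts in any library. It runs from the start of HLA-F to the end of TAPBP (GRCh37, chromosome 6, 29690552 to 33282061), and it was drawn from the outermost class I genes after their low counts had been seen. Of its 148 protein-coding genes, 71 had 0 counts in all 9 libraries, and 1 gene (0.676%) averaged at least 10 CPM (counts scaled by the library's own total). That gene was PRRC2A, a large RNA-associated protein gene, at 13.9 CPM. In the rest of the genome 46.3% of 19805 protein-coding genes reached 10 CPM, in the rest of chromosome 6 43.5%, and in the flanks of the same length 19.6% toward the telomere and 45.8% toward the centromere.

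Some genes that nearly every growing cell uses were close to 0 inside the stretch. RPS18, which encodes a protein of the small ribosomal subunit, had 1 to 6 counts per library, the β-tubulin gene TUBB 1 to 7 and the casein kinase subunit gene CSNK2B 0 to 4. LSM2, a subunit of the RNA-binding LSm ring, had 0 counts in all 9 libraries. Other widely used genes of the stretch had more, such as PRRC2A with 186 to 337 counts, the helicase gene DDX39B with 39 to 235 and BAG6, a chaperone gene, with 50 to 85. Outside it, the related β-tubulin gene TUBB4B had 8107 to 16049 counts and the ribosomal protein gene RPS19 7440 to 16406. On chromosome 6 just beyond TAPBP, the apoptosis effector BAK1 had 658 to 1219 counts and the calcium channel ITPR3 4465 to 16509. These genes were picked with their values in view. The stretch as a whole took 0.0079% of the counts of NR library 1, the lowest share, and 0.0141% of those of Ab library 1, the highest. The treatment of multiply aligned reads, the strand setting and the annotation release are not given in the sources used here. Their part in the low counts was not tested. The counts of the 7 class I genes inside it are therefore reported as counts in these files, and no level of their transcripts in the cells is read from them.

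**Figure D1:**
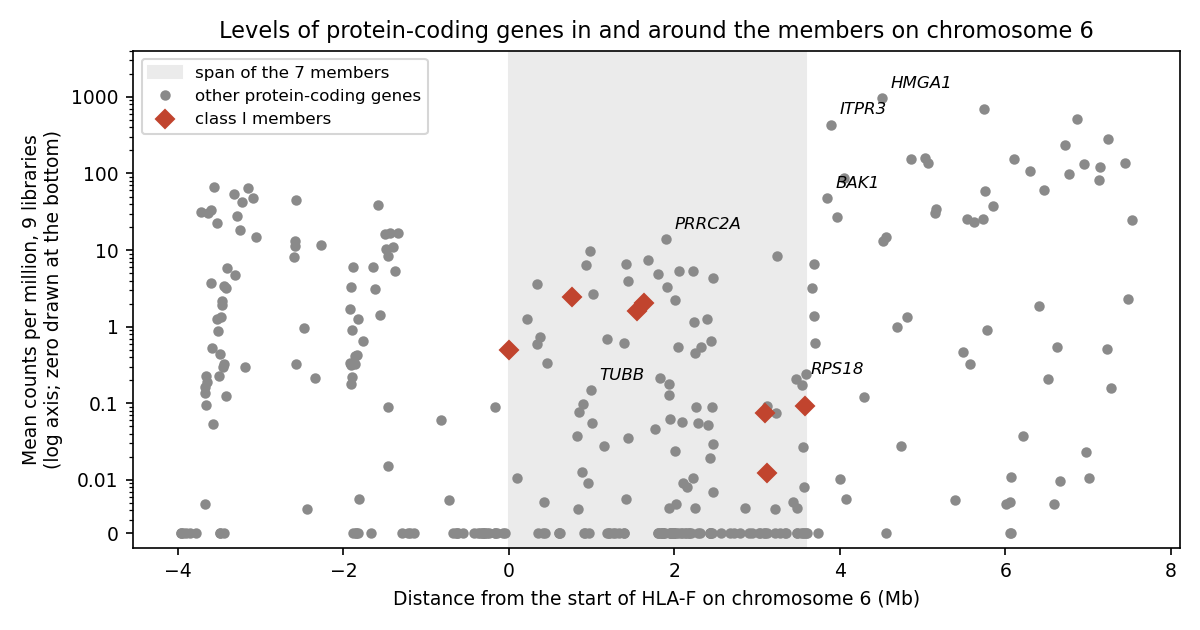
Mean CPM over the 9 libraries (log axis, zero drawn at the bottom) of protein-coding genes against their distance in Mb from the start of HLA-F, with the span of the 7 class I genes shaded and those genes as red diamonds. Inside the span only PRRC2A reached 10 CPM, while BAK1, ITPR3 and HMGA1 beyond it lay at 47.7, 432 and 960 CPM.

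B2M, the light chain gene (chromosome 15, 45003556 to 45011049, GRCh37), was the most abundant of the 9 genes and rose in both nanoparticle groups. It had 77375, 41655 and 46879 counts in NR, 56520, 60268 and 58735 in the SP libraries and 37053, 51320 and 39309 in Ab. Scaled to library totals, these were 0.301%, 0.3% and 0.294% of all counts in NR, 0.261%, 0.263% and 0.285% in the SP libraries and 0.189%, 0.195% and 0.187% in Ab. The 3 groups did not overlap, with NR highest and Ab lowest. Of all tested genes, 74.6% did not overlap in CPM between NR and Ab, 75.1% between SP and Ab and 18.1% between NR and SP. These shares also stand beside each gap between groups given below. B2M was the 9th most abundant gene in each NR library, between the 9th and the 12th in SP and between the 26th and the 30th in Ab. Against Ab, it was 1.54-fold higher in NR (log2 fold change, here log2FC, 0.62, SE 0.04, adjusted p = 1.06e-14, edgeR) and 1.39-fold higher in SP (log2FC 0.48, SE 0.04, adjusted p = 1.36e-10, edgeR). Both comparisons use the same Ab libraries. Neither change reached 2-fold. In bulk RNA, fewer cells of a type and less RNA per cell cannot be told apart.

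NLRC5 (chromosome 16, 57023397 to 57117443) was slightly lower in NR than in Ab. It had 1050, 590 and 702 counts in NR, 988, 970 and 874 in the SP libraries and 914, 1201 and 981 in Ab, which were means of 42.5 ± 1.62 CPM in NR, 43.4 ± 1.84 in SP and 46.3 ± 0.605 in Ab (SD, n = 3). All Ab libraries were above all NR libraries, and the highest SP library lay next to the lowest Ab library. The log2FC against Ab was -0.15 in NR (SE 0.06, adjusted p = 0.0269, edgeR) and -0.12 in SP (SE 0.06, adjusted p = 0.0896, edgeR), so that only NR passed the threshold of 0.05. Leaving out NR library 1 or Ab library 3 brought the adjusted p of NR to 0.0929 and 0.0676, and DESeq2 gave 0.0925, while leaving out SP library 1 brought that of SP to 0.0333. NR and SP were also compared directly and did not pass (log2FC -0.03, adjusted p = 0.862, edgeR).

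**Figure D2:**
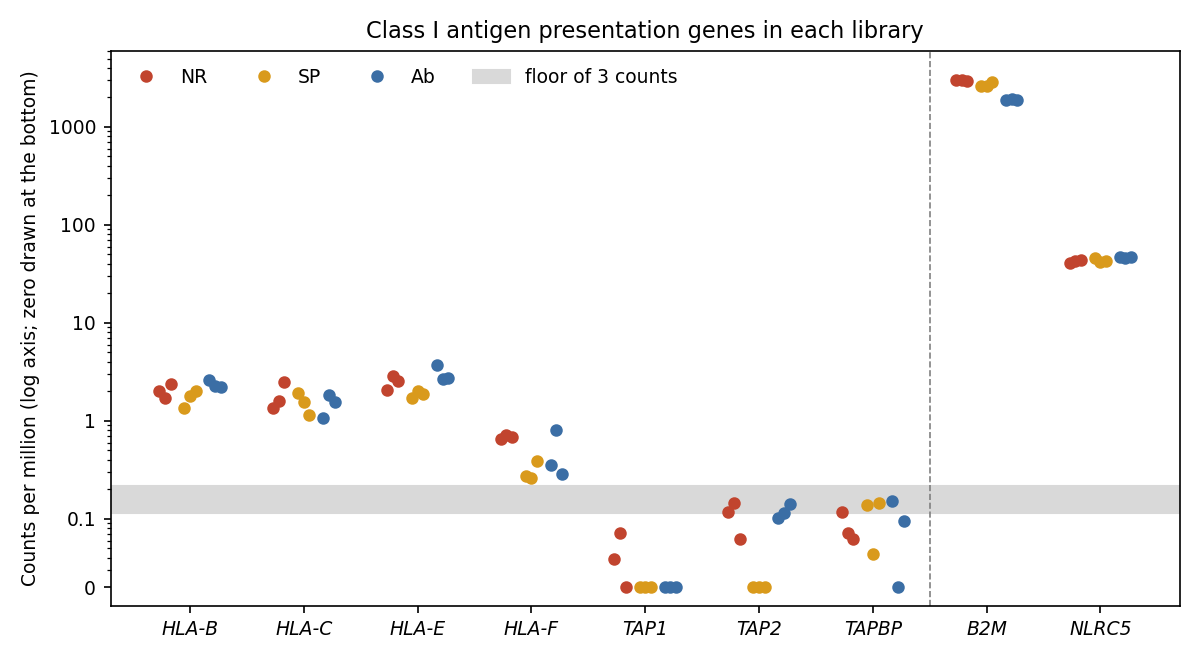
CPM of the 9 class I genes in each library (log axis, zero drawn at the bottom), with 3 points per group and the range of the 3-count floor in gray. The 7 genes left of the dashed line lie in the chromosome 6 span and stay below 4 CPM, while B2M lies between 1870 and 3010 CPM and NLRC5 between 40.8 and 46.7.

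The 4 heavy chain genes had 96 to 200 counts per library when summed. On chromosome 6 of GRCh37, HLA-F lies at 29690552 to 29706305, HLA-E at 30457286 to 30461971, HLA-C at 31236526 to 31239907 and HLA-B at 31321649 to 31334844. HLA-E, whose product presents leader peptides to NK cells, had 53, 40 and 41 counts in NR, 37, 46 and 39 in the SP libraries and 72, 71 and 58 in Ab. Its counts were lower in SP than in Ab with no overlap between the groups (log2FC -0.72, SE 0.21, adjusted p = 0.00391, edgeR), and the comparison of NR with Ab did not pass (log2FC -0.33, SE 0.21, adjusted p = 0.162, edgeR). HLA-B, a classical peptide-presenting heavy chain, had 52, 24 and 38 counts in NR, 29, 41 and 42 in the SP libraries and 51, 60 and 47 in Ab. All SP libraries were below all Ab libraries in CPM while NR overlapped both, and HLA-B passed in neither comparison (log2FC -0.23 in NR and -0.49 in SP, adjusted p = 0.348 and 0.0595, edgeR). Without SP library 3, HLA-B was past the threshold in SP (log2FC -0.61, adjusted p = 0.0381, edgeR). Its exons share 45.3% of their bases with other annotated genes, so its counts are also uncertain for that reason.

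HLA-C, the classical heavy chain best known as a ligand of NK cell receptors, had 35, 22 and 40 counts in NR, 42, 36 and 24 in the SP libraries and 21, 48 and 33 in Ab. The groups overlapped, the log2FC values were 0.21 in NR and 0.02 in SP (adjusted p = 0.504 and 0.941, edgeR), and their sign changed when 1 library was left out. HLA-F, a nonclassical heavy chain, had 17, 10 and 11 counts in NR, 6, 6 and 8 in the SP libraries and 7, 21 and 6 in Ab. Ab library 2 alone reached the NR level, and NR against Ab did not pass (log2FC 0.42, adjusted p = 0.369, edgeR). Without Ab library 2 the log2FC was 1.05 (adjusted p = 0.0711, edgeR). HLA-F had too few counts to be tested for SP against Ab. The heavy chain genes are close in sequence, and how reads shared between them were counted is not given, so each of their counts is uncertain.

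The 3 peptide loading genes of the span were at the detection floor, taken as 3 counts (0.114 to 0.216 CPM depending on the library). TAP2 lies at 32789610 to 32806516 on chromosome 6, TAP1 at 32812986 to 32821593 and TAPBP at 33267471 to 33282061. TAP1 had 1, 1 and 0 counts in NR and 0 in every SP and Ab library. TAP2 had 3, 2 and 1 in NR, 0 in all SP libraries and 2, 3 and 3 in Ab. TAPBP had 3, 1 and 1 in NR, 3, 1 and 3 in the SP libraries and 3, 0 and 2 in Ab. No group of any of the 3 rose above the floor, none was tested in the main comparisons, and no fold change is given for them. A count of 0 here limits the counts in the files and does not show that the cells lack the transcript.

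The counts in the files, per kilobase of exon, are given next for size only, since those of the span are not read as transcript levels. B2M had 956 ± 12.1 CPM per kb in NR, 864 ± 43.2 in the SP libraries and 610 ± 13.3 in Ab (SD, n = 3). NLRC5 had 3.43 ± 0.131, 3.51 ± 0.149 and 3.74 ± 0.0488 CPM per kb. HLA-E had 0.857 ± 0.143, 0.64 ± 0.052 and 1.04 ± 0.188, and HLA-C with 0.725 ± 0.243, 0.621 ± 0.154 and 0.594 ± 0.152. In NR and SP these 2 neighbours differed by less than their spread. HLA-B had 0.442 ± 0.0707, 0.372 ± 0.0769 and 0.513 ± 0.0439 CPM per kb, which in Ab was within the spread of HLA-C. The ratio of B2M to summed heavy chain counts was 493, 434 and 361 in NR, 496, 467 and 520 in the SP libraries and 245, 257 and 273 in Ab. The libraries of NR and SP were all above those of Ab in this ratio, whose lower term comes from the span with few counts.

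In all, NR against Ab had 1 of 6 tested class I genes higher (B2M) and 1 lower (NLRC5) at an adjusted p of at most 0.05 with edgeR, where 72.7% of all 15009 tested genes passed. SP against Ab had 1 of 5 higher (B2M) and 1 lower (HLA-E), where 73% of 15068 genes passed. With a minimum of 2-fold, 0 class I genes passed in either, against 22.7% and 23.2% of all genes (in NR, 12.4% higher and 10.3% lower; in SP, 12.6% and 10.6%). Without that minimum, B2M and NLRC5 for NR and B2M, HLA-E and HLA-B for SP had an unadjusted p under 0.05 with edgeR, as did 11187 of the 15009 and 11248 of the 15068 genes tested. The median log2FC was 0.03 over the 6 genes in NR and -0.12 over the 5 in SP, beside -0.005 and -0.007 over all genes. In the chromosome 6 span, 35.7% of 28 tested genes passed in NR and 34.6% of 26 in SP. The share of passing genes was thus lower among the few tested genes of the span than among all genes. Only 1 gene of the span averaged at least 10 CPM, and no share was taken over genes of like count elsewhere. The part of the low counts in this lower share was not tested.

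**Figure D3:**
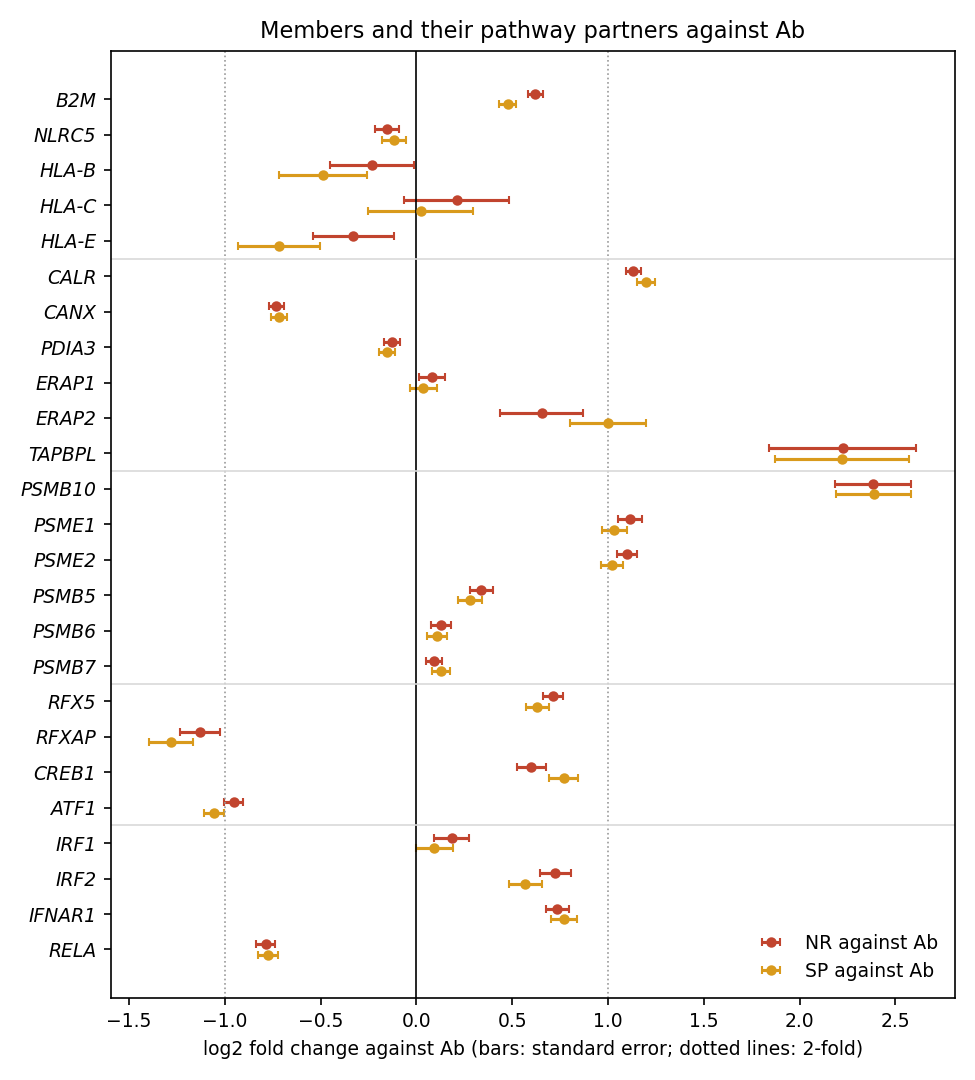
Log2FC values against Ab with standard errors from edgeR for B2M, NLRC5, the 3 heavy chains tested in both comparisons and pathway partners outside the span, with dotted lines at 2-fold. PSMB10 lay at 2.38 in NR and 2.39 in SP, B2M at 0.62 and 0.48, and TAPBPL had the widest error bars, followed by HLA-C.

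The proteasome genes that shape class I peptides rose where they could be measured. The list held the immunoproteasome subunits PSMB8, PSMB9 and PSMB10 and the activator subunits PSME1 and PSME2, and 3 of 5 were tested and higher by at least 2-fold in both NR and SP, where 12.4% and 12.6% of all genes were. PSMB10, an immunoproteasome catalytic subunit, had 162, 86 and 85 counts in NR, 139, 131 and 119 in the SP libraries and 19, 33 and 23 in Ab. It was 5.33 to 6.41 CPM in the 6 nanoparticle libraries and 0.971 to 1.25 CPM in Ab, with no overlap (log2FC 2.38 in NR and 2.39 in SP, SE 0.20 and 0.19, adjusted p = 1.56e-11 and 1.22e-11, edgeR). Its exons share 39.4% of their bases with another gene, and without a stated strand its counts are uncertain. PSME1 and PSME2, the subunits of the PA28 cap that opens the proteasome, were higher by log2FC values of 1.11 and 1.10 in NR and 1.03 and 1.02 in SP. Without Ab library 3, PSME1 in SP was at 0.97 and so under 2-fold. PSME2 lay at 108 to 111 CPM in NR, 102 to 107 in the SP libraries and 50.1 to 50.2 in Ab, so the Ab libraries were nearly equal. PSMB8 had 0 counts in all libraries and PSMB9 0 to 6, and both lie in the chromosome 6 span next to TAP1 and TAP2.

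The constitutive catalytic subunits moved less. PSMB5 was higher in both groups (log2FC 0.34 in NR and 0.28 in SP, adjusted p = 1.23e-05 and 0.000182, edgeR). PSMB6 passed only in NR (0.13 and 0.11, adjusted p = 0.0244 and 0.0647, edgeR) and PSMB7 only in SP (0.09 and 0.13, adjusted p = 0.0598 and 0.018, edgeR), and leaving out single libraries moved each across the threshold. None of the 3 reached 2-fold. NR and SP did not pass when compared directly for either PSMB6 or PSMB7 (adjusted p = 0.879 and 0.782, edgeR).

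**Figure D4:**
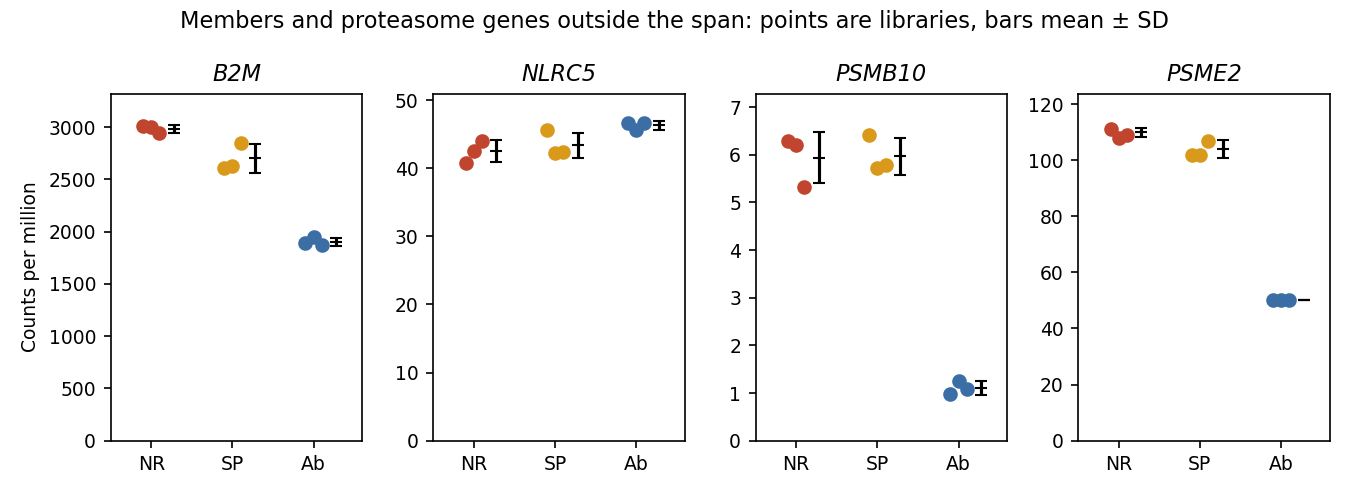
CPM of B2M, NLRC5, PSMB10 and PSME2 in each library (points) with the mean and SD of each group (n = 3), on linear axes that start at 0. For B2M, PSMB10 and PSME2 all NR and SP libraries were above all Ab libraries, while the NLRC5 groups lay between 40.8 and 46.7 CPM.

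Among the chaperones and trimming enzymes of the loading step, 3 of 6 rose and 2 fell in each nanoparticle group, and ERAP1 did not pass. The share of the 6 genes that passed is near the 72.7% and 73% of all genes (36.4% higher in both comparisons). Calreticulin (CALR), which holds the heavy chain during loading, had 22881, 12340 and 14179 counts in NR, 21685, 20843 and 18205 in the SP libraries and 7891, 10290 and 8438 in Ab. It was higher by log2FC values of 1.13 in NR and 1.20 in SP (SE 0.04 and 0.05, adjusted p = 5.14e-20 and 1.3e-18, edgeR), with no overlap. Calnexin (CANX), which holds heavy chains before B2M joins, went the other way, with 47526, 26374 and 30765 counts in NR, 41437, 43913 and 39082 in the SP libraries and 58305, 83154 and 65408 in Ab (log2FC -0.73 and -0.72, adjusted p = 5.23e-16 and 5.01e-15, edgeR). PDIA3, the disulfide isomerase of the loading complex, fell by 0.13 and 0.15 on the log2 scale. TAPBPL, a tapasin-related peptide editor, was low, with 77, 26 and 24 counts in NR, 53, 44 and 46 in the SP libraries and 9, 19 and 3 in Ab (log2FC 2.22 in both, SE 0.39 and 0.35, adjusted p = 2.64e-05 and 2.33e-06, edgeR), and without Ab library 2 its log2FC was 2.83 in both. ERAP2, an aminopeptidase that trims peptides, had 85, 36 and 51 counts in NR, 82, 86 and 86 in the SP libraries and 30, 50 and 48 in Ab, and was higher by 0.65 on the log2 scale in NR and by 2-fold in SP, where its log2FC lay between 0.88 and 1.14 over the alternatives (adjusted p = 0.00825 and 6e-05, edgeR), though DESeq2 gave 0.0625 for NR. ERAP1 had log2FC values of 0.08 and 0.04 (adjusted p = 0.27 and 0.657, edgeR).

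Of the factors that share the class I promoters with NLRC5, RFX5 and CREB1 rose and RFXAP and ATF1 fell in both groups. RFX5 was higher by log2FC values of 0.71 in NR and 0.63 in SP, and its complex partner RFXAP was lower, at -1.13 and -1.28 (adjusted p = 1.02e-10 and 5.93e-11, edgeR). CREB1, which binds CRE sites, changed by 0.60 and 0.77, and the related ATF1 by -0.95 and -1.06. The factors moved in both directions: 2 of 8 tested genes were higher and 2 lower in NR, 3 higher and 3 lower in SP, where 36.4% of all genes were higher in both comparisons and 36.4% and 36.6% lower. The third RFX subunit, RFXANK, had log2FC values of 0.01 and 0.04 and did not pass. CIITA, the class II counterpart of NLRC5, had 4 to 25 counts per library and was not tested against Ab.

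Genes of the interferon and NF-kB pathways were mixed upstream and mostly rose downstream. Interferon genes themselves (IFNG, IFNB1, IFNA1 and the IFNL genes on the list) had 0 counts in all 9 libraries, which allows up to 3 counts in each. Of 14 tested regulators, NR had 5 higher and 4 lower, SP 4 higher and 5 lower, which is below the 72.7% and 73% of all genes that passed. The interferon receptor chain IFNAR1 was higher by log2FC values of 0.74 and 0.77 (adjusted p = 5.75e-12 and 5.73e-11, edgeR), the kinase JAK1 by 0.39 and 0.37 and IRF2, which binds the same element as IRF1, by 0.73 and 0.57. The NF-kB subunit RELA was lower, at -0.79 and -0.78. IRF1, an activator of class I promoters, did not pass (log2FC 0.18 and 0.09, adjusted p = 0.0749 and 0.388, edgeR). IRF9, the DNA-binding subunit of the factor ISGF3, had only 1, 3 and 3 counts in NR, 7, 7 and 6 in the SP libraries and 18, 13 and 11 in Ab. It was lower in both (adjusted p = 0.00102 and 0.0361, edgeR), and in SP it missed the threshold with DESeq2 (0.172) and when Ab library 1 (0.196) or any 1 SP library (0.0671 to 0.0862) was left out.

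Of 16 interferon-stimulated genes listed, 15 were found and 13 tested. Of these, 12 were higher in NR and 13 in SP, 9 and 11 of them by at least 2-fold, where 36.4% of all tested genes were higher in each comparison and 12.4% and 12.6% by 2-fold. Their median log2FC values were 1.51 and 1.34. IFI6, an endoplasmic reticulum protein, had 1197, 626 and 724 counts in NR, 963, 1065 and 970 in the SP libraries and 87, 94 and 73 in Ab (log2FC 3.56 and 3.57, SE 0.10 in both, adjusted p = 1.27e-22 and 5.51e-22, edgeR). BST2, the membrane tether of budding viruses, was higher by 1.87 and 1.93 and the RNA sensors OAS1 by 1.81 and 1.74 and OAS3 by 1.55 and 1.56. GBP2, a guanylate-binding protein, had 103, 54 and 44 counts in NR, 44, 90 and 60 in SP and only 3, 3 and 1 in Ab. Its Ab counts are at the floor, so it entered the tests only through its NR and SP counts. MX1 was the tested gene that passed in SP alone (log2FC 1.04, adjusted p = 0.00244, edgeR), with 0.48 in NR (adjusted p = 0.176, edgeR), and the direct comparison of NR with SP did not pass (adjusted p = 0.404, edgeR). The list was written with earlier results of these data known and is not independent evidence of its direction.

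Most of the class I-like genes that passed also rose. Of 9 tested genes in NR and 10 in SP, 5 were higher and 1 lower in each, where 36.4% of all genes were higher in both comparisons and 36.4% and 36.6% lower. The fifth higher gene was RAET1E in NR and RAET1G in SP, both of the NKG2D ligand family. RAET1E did not pass in SP (adjusted p = 0.0957, edgeR), RAET1G, with 5 to 17 counts per library, was not tested in NR and entered the test in SP through its higher SP counts, and neither passed between NR and SP (adjusted p = 0.443 and 0.528, edgeR). PROCR, the endothelial protein C receptor, had 401, 220 and 220 counts in NR, 323, 345 and 330 in the SP libraries and 21, 32 and 18 in Ab (log2FC 3.80 and 3.82, adjusted p = 5.49e-18 and 4.03e-18, edgeR). MR1, which presents vitamin B metabolites to MAIT cells, was higher by 1.49 and 1.65, HFE, a regulator of iron uptake, by 1.39 and 1.47 and the neonatal Fc receptor chain FCGRT by 0.62 in both. MR1, HFE and FCGRT pair with β2-microglobulin and PROCR does not. ULBP1, a ligand of the NK cell receptor NKG2D, fell by 1.23 and 1.31 on the log2 scale. MICA, another NKG2D ligand inside the span, had 339 counts in Ab library 1 and 83 to 160 in the other 8 libraries, and did not pass. Of 9 MHC class II genes, 8 lie in the span, and none was tested. The class II invariant chain CD74, which lies outside it, had 0 to 3 counts.

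NR was compared with SP directly, and 0 of 6 tested class I genes passed the adjusted p with edgeR, where 0.443% of 14903 genes did, and 0 also reached 2-fold, where 0.0201% did. B2M came closest, with all NR libraries above all SP libraries and a log2FC of 0.15 (SE 0.04, unadjusted p = 0.000477, adjusted p = 0.0649, edgeR). The NR and SP libraries did not overlap for 18.1% of all genes tested. With DESeq2 the adjusted p of B2M was 0.00573, and without SP library 3 it was 0.0104 with edgeR. The unadjusted p was under 0.05 for B2M and HLA-F and for 1922 of all 14903 genes. HLA-F, tested here because of its NR counts, had a log2FC of 1.15 (SE 0.45, adjusted p = 0.259, edgeR) from at most 17 counts. HLA-B, HLA-C and HLA-E had log2FC values of 0.26, 0.19 and 0.40 with SE of 0.25, 0.28 and 0.23, so differences of that order were not detectable at these counts. No partner gene outside the span from the lists above passed between NR and SP.

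Markers of several cell types moved with B2M and the interferon-stimulated genes in NR and SP. Beside the marker counts below, 36.4% of all tested genes were higher in each comparison against Ab. By at least 2-fold, 12.4% were higher in NR and 12.6% in SP. Of 5 epithelial markers, 4 were higher in both groups, among them the most abundant, the keratin KRT8 (log2FC 1.52 and 1.59), the adhesion gene CDH1 (4.27 and 4.52, from 5, 5 and 9 counts in Ab) and EPCAM (1.68 and 1.60), while KRT19 had 0 or 1 count in every library. The summed epithelial level was 2200 to 2360 CPM in NR and SP and 835 to 885 CPM in Ab. Of 6 fibroblast markers, DCN, LUM and PDGFRB were higher and 3 collagen genes did not pass. LUM, a matrix proteoglycan, had 986, 514 and 590 counts in NR, 824, 891 and 802 in the SP libraries and 18, 24 and 20 in Ab. Their summed level was 106 to 119 CPM in NR and SP, 45.3 and 42.4 CPM in Ab libraries 1 and 2 and 17.7 CPM in Ab library 3, with the collagen COL1A1 the most abundant in Ab and COL1A1 and LUM at similar counts in NR and SP. The collagen COL1A2 had 37, 0 and 0 counts in NR, 49, 49 and 43 in the SP libraries and 198, 278 and 33 in Ab (log2FC -3.56 and -1.81, adjusted p = 0.068 and 0.109, edgeR), so Ab library 3 stood apart from the other Ab libraries, and COL3A1 had log2FC values of 0.03 and 0.27 (adjusted p = 0.97 and 0.716, edgeR). Of 4 endothelial markers found, CDH5 and VWF were higher, and the summed level was 20.8 to 24.2 CPM against 3.53 to 5.04. VWF had 0, 0 and 1 counts in Ab, which is at the floor, and entered the tests only through its NR and SP counts. It could therefore not have been called lower. KDR, the gene of the antibody's target VEGFR2, had 0 or 1 count in every library. Among 14 leukocyte markers, CSF1R was higher in both groups, from only 3, 8 and 3 counts in Ab, and CD14 was lower in NR. CSF1R also entered the tests through its NR and SP counts. The 14 markers summed to 5.71 to 8.35 CPM in NR and SP against 1.47 to 2.25 in Ab, and the defining markers PTPRC, CD3D and MS4A1 had 0 or 1 count. Their part in the class I results was not tested.

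Across the 9 libraries, the mean profile of the 6 tested class I genes was most like that of TAF10, a general transcription factor subunit (Pearson r = 0.95), followed by PDSS2 (0.92), ENSG00000217130 (0.91), USP46 (0.89) and ZNG1C (0.88). Among the class I genes themselves, r was 0.73 between HLA-B and HLA-E and -0.88 between B2M and NLRC5. These correlations share the library, its depth and the group differences, and they are given as a description.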

How the data were processed

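Poly-A libraries were sequenced paired-end. Per the methods, the authors filtered the reads, aligned them with Hisat2 (version 2.1.0) and counted reads per gene; the reporting summary gives the human genome hg19 and HTSeq, the methods another counter name, and the labels a mouse build, while the deposited IDs are human Ensembl genes. The deposited values are whole counts, not scaled between libraries. The annotation release, strand setting and treatment of multiply aligned reads are not given in the sources used here.

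Gene symbols, positions and exon lengths came from GENCODE 44 on GRCh37 (59858 of 60880 IDs matched; unmatched IDs took no more than 0.115% of any library's counts). From the counts, pairs of groups were compared on their own 6 libraries in R 4.3.3 by edgeR 4.0.16 (TMM scaling; genes kept by filterByExpr at a minimum count of 10 and a total of 15; robust quasi-likelihood fit). P-values were Benjamini-Hochberg adjusted over every gene tested. Likeness was Pearson's r on log2 CPM (prior count 2). Named were all members, partners past the adjusted p and 2-fold against Ab (at most 6 per list), the 3 with the smallest adjusted p per list, and fixed partners; other genes are said to be picked with their values in view. The members and lists were chosen with earlier results of these data known. Alternatives were DESeq2 1.42.0, RLE scaling, no filter beyond 1 count, 1 fit of all 9 libraries, a replicate block, a fold minimum of 1.5 and leaving out each library. The tests were run on simulated data first. A few listed genes are not reported here by name. Python 3.11.15 was used for tables. The 3-count floor covers counting error only, while SD and SE reflect the spread between libraries.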

Additional observations from a re-analysis of the deposited data

How the results depend on the processing

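B2M kept its rise against Ab under all alternatives run, with log2FC values of 0.61 to 0.63 in NR and 0.44 to 0.49 in SP. In NR against Ab, 1 class I gene passed in place of 2 with DESeq2, and leaving out 1 library gave 1 to 2 (NLRC5 lost without NR library 1 or Ab library 3). With a fold minimum of 1.5 in place of 2, 1 class I gene passed in NR (B2M) and 1 in SP (HLA-E), and 6348 and 6385 genes in all. Without a filter beyond 1 count, 1 class I gene passed 2-fold in SP, TAP2, whose libraries are all at or under the floor. In NR against SP, 1 class I gene (B2M) in place of 0 passed with DESeq2 and without the filter, and leaving out 1 library gave 0 to 1 (B2M without SP library 3). The 66 genes past the adjusted p in that comparison were 144 with DESeq2, 328 without the filter and 10 to 188 with 1 library left out. The 3 genes past 2-fold were 0 with DESeq2, 27 without the filter, 5 at 1.5-fold and 0 to 28 with 1 library left out. Leaving out 1 library changed the sign of some log2 fold changes that had not passed: HLA-C ran from -0.086 (without NR library 3) to 0.42 in NR against Ab, from -0.17 (without SP library 1; -0.15 without Ab library 1) to 0.20 in SP against Ab and from -0.10 (without NR library 3) to 0.40 in NR against SP, ERAP1 from -0.024 (without SP library 1) to 0.086 in SP against Ab, and NLRC5 from -0.061 to 0.0030 (without SP library 1) in NR against SP. The cause was not tested. The deviations of same-numbered libraries from their group means correlated with r between -0.03 and 0.03. In SP against Ab, all same-numbered r were positive (0.028, 0.020 and 0.022) and all other r negative (-0.019 to -0.004). Values of r this small neither show nor exclude a pairing by number. With the replicate block, 10630 genes passed in NR and 10970 in SP against Ab and 51 between NR and SP. B2M then had log2FC values of 0.62, 0.47 and 0.15. Few counts limit the heavy chains and the transporter genes.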

Other observations

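Counts of some genes of the chromosome 6 span differed strongly between libraries or groups. VARS1, the valyl-tRNA synthetase gene, had 633 counts in Ab library 2 and 43 to 79 in the other 8 libraries. BRD2, a bromodomain protein gene, had 281, 224, 280 and 274 counts in NR library 3, SP libraries 1 and 3 and Ab library 1, and 59 to 146 in the other 5. DDX39B, an RNA helicase gene of mRNA export, had 39 to 76 counts in NR and SP and 188 to 235 in Ab, with no overlap between these groups. These genes were picked with their values in view. CUTA, just beyond TAPBP toward the centromere, was low as well, at 75 to 220 counts.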
